A study of Homo sapiens with 8 samples.

Results

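The genes described here carry a cell from G1 into S phase and copy its DNA. They are 45 named genes, out of 17303 genes that could be named alone at the gene or the exon level of the array: the D-type and E-type cyclins with their kinases, 2 inhibitors of those kinases, RB1 and 3 E2F factors, the proteins that load and start the replicative helicase, polymerases with their clamp and clamp loader, and the enzymes that supply nucleotides. They were taken from a list of names, chosen with earlier results of these data known. Only array features annotated to 1 of these genes and to no other gene were read. All came from MDA-MB-231, an established human cell line from a metastatic breast tumour that lacks oestrogen receptor. Both groups had been transduced with lentivirus and expressed a short hairpin RNA stably, grown in serum-containing medium on plastic. In the control group the hairpin was labelled a control, and in the knockdown group it targeted α3, the integrin subunit encoded by ITGA3. Each group had 2 cultures, given as biological replicates, and each culture was read on 1 Affymetrix exon array, summarised once per gene and once per exon. Whether a line was a clone or a pool, how many hairpins were used against α3 and how dense or synchronous the cultures were is not given in the sources used here.

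In G1, D-type cyclins bind CDK4 or CDK6 and begin to phosphorylate RB, the retinoblastoma protein, which holds E2F transcription factors in check. Cyclin E with CDK2 completes that phosphorylation, and the freed E2F factors switch on genes of DNA synthesis, many of which are among those described here. Origins are licensed when ORC, CDC6 and CDT1 load the MCM helicase onto DNA, and the helicase starts when CDC45 and the GINS complex join it. In breast cancer cells this machinery is the target of inhibitors of CDK4 and CDK6.

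E2F factors act through a short element in promoters, and the promoters of these genes were searched for 4 spellings of the E2F site, TTTCCCGC, TTTCGCGC, TTTGCCGC and TTTGGCGC, on both strands, in RefSeq windows (GRCh38.p14) from 250 bases before to 50 bases after the start. Of the 45 genes, 38 had an entry, and 18 of them (47.4%) held a match, against 1090 of 27305 genes in the whole table (3.99%). Of 51 further genes of the same pathway with an entry, 17 (33.3%) did, and of 24 G2 and mitosis genes, 3 (12.5%). Stretches from 4 promoters follow. They were chosen because 1 gene rose in the knockdown arrays (MCM6), 1 fell (GINS3) and 2 did not pass the test in either direction (E2F1, PCNA). PCNA had no gene-level feature of its own and was tested from exons only. The stretches are printed 5′ to 3′ on the gene's strand, and capitals mark the matches. MCM6 is at chr2:135876444-135876693 on the minus strand, GINS3 at chr16:58392221-58392473 on the plus strand, E2F1 at chr20:33686386-33686445 on the minus strand and PCNA at chr20:5126623-5126702 on the minus strand. All these bases lie upstream of the start except the last 3 of the GINS3 stretch.
MCM6: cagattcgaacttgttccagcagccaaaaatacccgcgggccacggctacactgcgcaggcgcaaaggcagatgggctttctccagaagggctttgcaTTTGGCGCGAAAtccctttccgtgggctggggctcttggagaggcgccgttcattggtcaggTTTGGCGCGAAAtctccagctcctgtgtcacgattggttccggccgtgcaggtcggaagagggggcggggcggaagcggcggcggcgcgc
GINS3: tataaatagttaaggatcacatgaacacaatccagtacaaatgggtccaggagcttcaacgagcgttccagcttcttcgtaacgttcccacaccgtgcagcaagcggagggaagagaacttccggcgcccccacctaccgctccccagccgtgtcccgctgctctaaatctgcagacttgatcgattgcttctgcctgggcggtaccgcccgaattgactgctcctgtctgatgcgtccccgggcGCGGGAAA
E2F1: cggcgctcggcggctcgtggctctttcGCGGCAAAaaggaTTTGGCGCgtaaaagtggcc
PCNA: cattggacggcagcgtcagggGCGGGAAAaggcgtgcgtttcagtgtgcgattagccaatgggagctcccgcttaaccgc
The MCM6 stretch held 4 matches in 2 pairs, each pair overlapping on opposite strands. The E2F1 stretch held 2 matches, and the GINS3 and PCNA stretches held 1 each. A match is a description of the letters and not a measured binding site. Among the members that passed the test of expression below, 2 of 9 with an entry held a match (22.2%), and among those tested that did not pass it 13 of 23 did (56.5%). This difference in shares was not tested.

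The arrays matched their labels. ITGA3 read 3480 and 3529 in the control arrays and 619 and 644 in the knockdown arrays. Over all genes, arrays of one group correlated at 0.9899 and 0.9915, and arrays of different groups at 0.9794 to 0.982. The 5 markers of a mesenchymal breast line lay between the 92.8 and 98.4 percentiles of all features, and their summed intensity was 20970 and 21329 in the control arrays and 17877 and 17558 in the knockdown arrays. Among them AXL alone passed the test described below, reading 4130 and 4217 in the control arrays and 2914 and 2908 in the knockdown arrays (limma adjusted p = 0.00691). The 6 luminal markers summed to 494 and 506 in the control arrays and 679 and 690 in the knockdown arrays. Most of that difference was CDH1, E-cadherin, dim at 25.4 and 28.8 in the control arrays and at 177 and 168 in the knockdown arrays. The 4 fibroblast markers with values summed to 275 to 301 on all 4 arrays, and the 4 leukocyte markers, mostly CD68, to 2242, 2140, 1876 and 1870. CD68 passed the same test as lower (limma adjusted p = 0.0374). The part of these shifts in the results below was not tested.

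Of the 45 genes, 38 were tested at the gene level, CCND2 was too dim there, and CDK4, CDKN2C, MCM7, POLA1, PCNA and FEN1 had no gene-level feature of their own and were read from exons only. In the knockdown arrays 4 genes rose (CDK6, CDKN1B, MCM6, RFC2) and 7 fell (GINS3, GINS4, CCNE1, MCM5, TK1, CDC45, RFC5), at an adjusted p below 0.05 in limma over all features. That is 28.9% of the 38, beside 21.3% of all 13207 features tested, of which 5.99% rose and 15.3% fell. The difference between these shares was not tested, and the share of members was no longer the larger when either knockdown array was left out. The median difference, knockdown minus control, was -0.06 on the log2 scale for these genes and -0.06 for all features. Of the 38, 18 had a positive and 20 a negative difference. In 30 of the 38 genes (78.9%) the groups did not overlap, 13 above and 17 below the controls, beside 61.8% of all features. RNA of a whole culture was measured, so fewer cells in S phase and less RNA per cell cannot be told apart. The balance between risen and fallen features depended on how arrays were scaled: 791 rose and 2016 fell as deposited, 1354 and 1679 after quantile normalization, and 1586 and 1457 after centring. Among the 38 genes the corresponding counts were 4 and 7, 5 and 6, and 8 and 6.

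**Figure D1:**
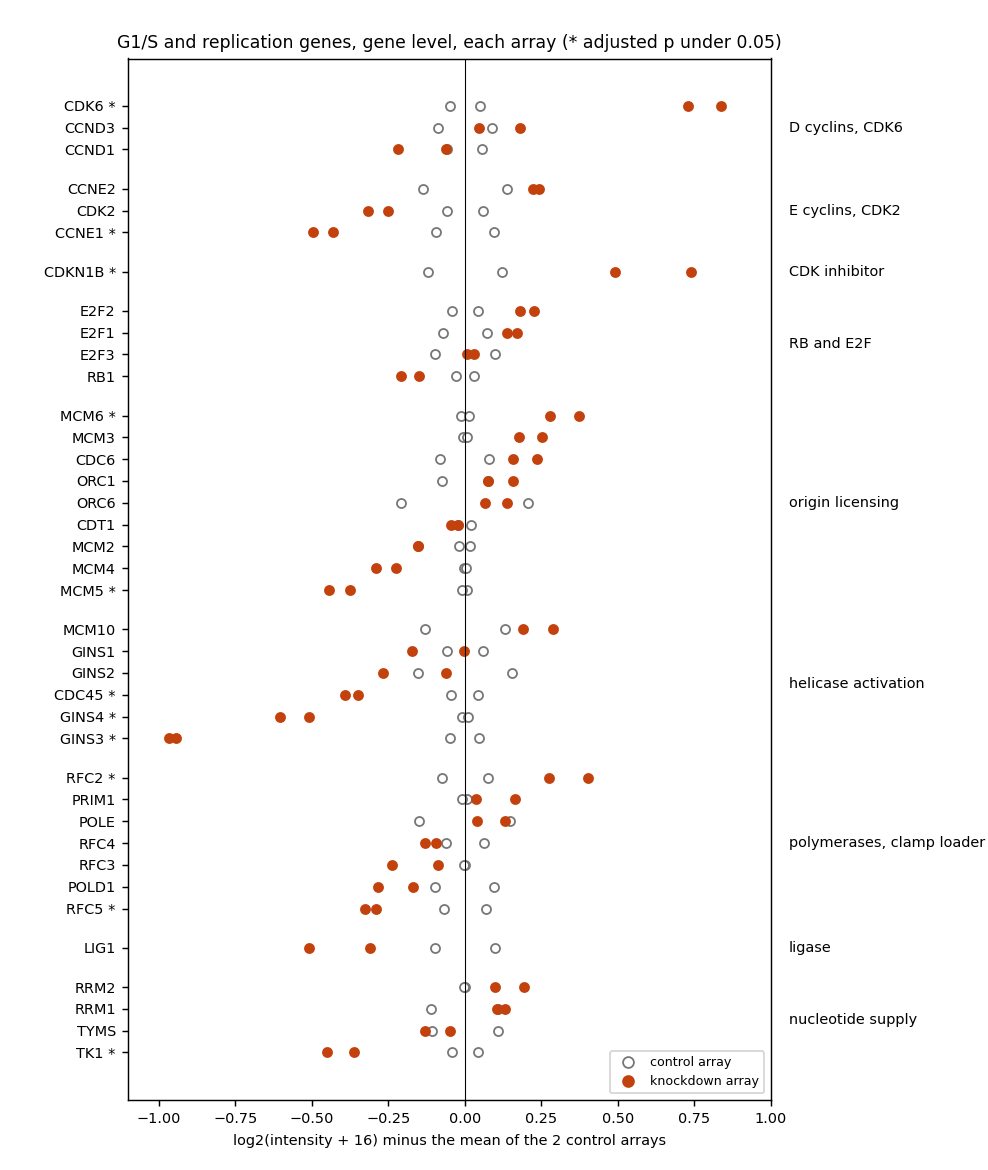
Each of the 38 genes tested at the gene level, on the log2(intensity + 16) scale with the mean of the control arrays set to 0; open circles are control arrays, filled circles are knockdown arrays and an asterisk marks an adjusted p below 0.05. CDK6 and CDKN1B stand farthest to the right and GINS3 farthest to the left, and genes of one step lie on both sides of 0.

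Of the first kinases and cyclins of G1, CDK6 rose strongly and the cyclins D1 and D3 did not pass the test. CDK6, the kinase partner of the D-type cyclins, read 460 and 494 in the control arrays and 865 and 802 in the knockdown arrays. Both knockdown arrays were far above both controls, a difference of 0.79 ± 0.087 (log2, SE), or 1.72-fold, with an adjusted p of 0.00394 in limma. The call held under each of the 14 other settings tried, at adjusted p from 0.00106 to 0.0246. All 19 tested exon probesets of CDK6 were higher in both knockdown arrays, by 0.39 to 1.36 on the log2 scale, where 19.4% of all tested probesets lay above both controls. Here and below, probesets of a gene were read on the same arrays as its gene-level value and are not replicates. On their own 9 of the CDK6 probesets passed the test, and 0 did without the filter on low values or without the intensity trend (limma in each case). With 1 array left out, 3 to 8 passed. CCND1, cyclin D1, read 4163 and 4508 in the control arrays and 4150 and 3719 in the knockdown arrays, a difference of -0.14 ± 0.091 (log2, SE; limma adjusted p = 0.324). CCND3, cyclin D3, read 1114 and 985 against 1188 and 1082, and the groups overlapped. CDK4, the close relative of CDK6, was read from 12 exon probesets, of which 9 lay below both controls and none above, with none passing the test. Of all tested probesets, 31.3% lay below both controls. The median of the CDK4 probesets differed by -0.15 on the log2 scale (limma adjusted p = 0.346). The change in CDK6 was therefore not accompanied by a called change in CDK4, though a test of the difference between the 2 genes was not made.

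CCND2, cyclin D2, had readings that differed along the gene, though no probeset was called as departing from the rest of the gene. Its gene-level intensity was 81.9 and 126 in the control arrays and 16.4 and 10.8 in the knockdown arrays, too dim on average to pass the filter on low values. With that filter removed, it differed by -2.0 ± 0.229 (log2, SE; limma adjusted p = 0.0143), in a fit that called 9.07% of all features, 2.2% higher and 6.86% lower. At the exon level it had 10 probesets, of which 3 passed the filter, whose limit was a mean of log2(intensity + 16) equal to an intensity of 96.2. Probeset 3401715 read 2184 and 1970 in the control arrays and 2207 and 2800 in the knockdown arrays, a difference of 0.26 on the log2 scale that did not pass the test (limma adjusted p = 0.350). Against the mean of the other 2 tested probesets its difference was 1.73 (log2), which did not pass either (limma adjusted p = 0.0886). The other 9 were dim: control readings lay between 18.3 and 252, knockdown readings between 0.002 and 107. Of these, 8 were below both controls in both knockdown arrays and 1 overlapped them, and among all probesets of the array 27.5% lay below. Probeset 3401729 read 171 and 252 in the control arrays and 65.0 and 33.3 in the knockdown arrays, and probeset 3401718 read 158 and 214 against 79.5 and 73.6. These 2 passed the filter through their control readings alone. Their differences and the comparison of probeset 3401715 with their mean are given as values and support nothing. The same holds for any median or mean over the 3 tested probesets of CCND2. The median differed by -1.28 on the log2 scale, and with the lower 60% of probesets left out it could not be formed.

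**Figure D2:**
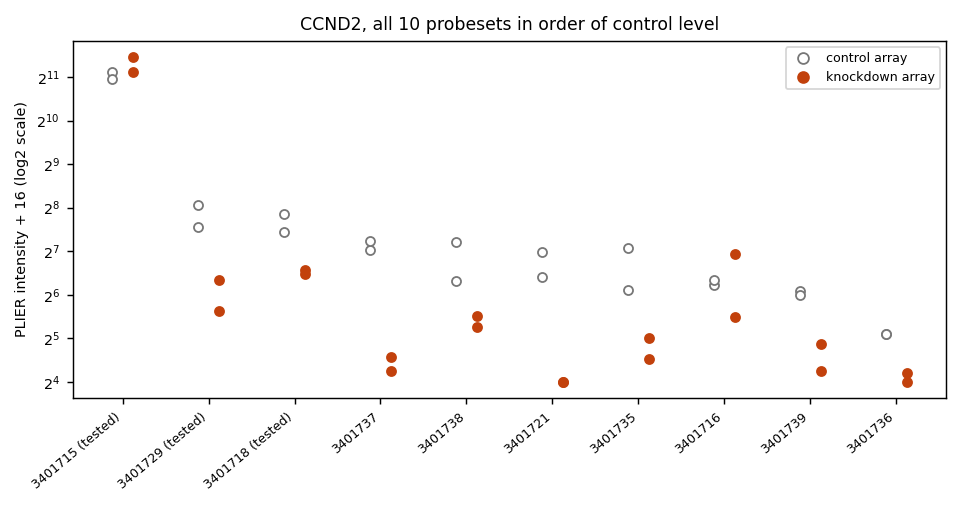
All 10 CCND2 probesets in order of their control level, as intensity + 16 on a log2 axis; open circles are control arrays and filled circles are knockdown arrays. The brightest probeset is at or above its controls in the knockdown arrays, while 8 of the other 9 lie below theirs.

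Of the inhibitors of these kinases, CDKN1B rose and CDKN2C did not pass its planned test. CDKN1B, which encodes p27, the inhibitor of cyclin E with CDK2, read 400 and 475 in the control arrays and 620 and 740 in the knockdown arrays. It was higher in both, by 0.62 ± 0.126 (log2, SE) or 1.53-fold, with an adjusted p of 0.0202 in limma. Leaving out control replicate 1 or knockdown replicate 2 ended the call, at adjusted p of 0.0557 and 0.118, as did removing the filter on low values, at 0.0518. All 5 of its exon probesets were higher on average, by 0.35 to 1.03 on the log2 scale. CDKN2C, which encodes p18, an inhibitor of CDK4 and CDK6, was read from exons only. All 8 of its probesets lay below both controls in both knockdown arrays, by 0.15 to 0.45 on the log2 scale, beside the 31.3% of all tested probesets. No single one passed the test. Its median differed by -0.31 (log2; limma adjusted p = 0.128), and the mean of its probesets, a summary added after seeing the data, fell by 0.38 (log2; limma adjusted p = 0.0248).

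Of the E-type cyclins and their kinase, only cyclin E1 passed the test, and the difference between the 2 cyclins was not tested. CCNE1, cyclin E1, read 433 and 496 in the control arrays and 324 and 340 in the knockdown arrays, a fall of 1.38-fold. The difference was -0.46 ± 0.101 (log2, SE), with an adjusted p of 0.0250 in limma. The call was lost without control replicate 2 (0.0620), without knockdown replicate 1 (0.135) or 2 (0.114), and without the filter on low values (0.0520). CCNE2, cyclin E2, read 443 and 540 in the control arrays and 581 and 573 in the knockdown arrays. Its knockdown arrays were above both controls, by 0.23 on the log2 scale, which did not pass the test (limma adjusted p = 0.194) but did after quantile normalization or centring. CDK2, their kinase partner, read 1636 and 1779 against 1366 and 1431, below both controls, by 0.28 on the log2 scale (limma adjusted p = 0.0533). It passed as lower with the lower 60% of features left out.

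RB1 and the E2F factors among the members, E2F1, E2F2 and E2F3, did not pass the test in either direction. E2F4, which is not a member, passed it as lower and is given below with further genes of the pathway. RB1 read 1165 and 1215 in the control arrays and 1026 and 1071 in the knockdown arrays, a difference of -0.18 ± 0.076 (log2, SE; limma adjusted p = 0.148). E2F1, an activating E2F, read 516 and 572 against 600 and 614, with a difference of 0.15 on the log2 scale (limma adjusted p = 0.269). E2F2, another activating E2F, read 113 and 121 against 134 and 139, a difference of 0.20 (log2; limma adjusted p = 0.265). In RB1, E2F1 and E2F2 the groups did not overlap, as in 61.8% of all features tested at the gene level. E2F3 read 582 and 668 against 638 and 626, and the groups overlapped.

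Among the licensing genes, the subunits of the MCM helicase split. MCM6 rose and MCM5 fell, though the protein products work together as a ring of 6 different subunits. MCM6 read 950 and 966 in the control arrays and 1165 and 1247 in the knockdown arrays, 0.33 ± 0.077 higher (log2, SE) or 1.25-fold (limma adjusted p = 0.0318). MCM5 read 1319 and 1305 in the control arrays and 960 and 1009 in the knockdown arrays, a difference of -0.41 ± 0.075 (log2, SE), 1.33-fold lower (limma adjusted p = 0.0148). In both genes the control arrays lay close together and neither knockdown array reached them. Leaving out any single array ended the MCM6 call, at adjusted p from 0.0571 to 0.230, as did removing the filter (0.0586) or the intensity trend (0.0519), and leaving out knockdown replicate 1 or 2 ended that of MCM5, at 0.0999 and 0.0732.

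The other subunits lay to one side or the other without passing the test at the gene level. MCM3 read 1628 and 1642 in the control arrays and 1852 and 1951 in the knockdown arrays (difference 0.22 on the log2 scale, limma adjusted p = 0.0883, and 0.0351 after centring). MCM4 read 1703 and 1709 against 1456 and 1392 (difference -0.26, limma adjusted p = 0.0530), and it passed with the lower 60% of features left out. MCM2 read 1201 and 1171 against 1064 and 1066 (difference -0.15, limma adjusted p = 0.189). In each of these 3 genes the groups did not overlap, as in 61.8% of all features tested at the gene level. Of the tested exon probesets, 15 of 19 for MCM6 and 15 of 22 for MCM3 lay above both controls in both knockdown arrays, and 21 of 23 for MCM5, 18 of 29 for MCM4 and 9 of 21 for MCM2 lay below, beside 19.4% above and 31.3% below among all tested probesets. MCM2, with the smallest of these shares, was near that background. MCM7, read from exons only, had 22 of 26 tested probesets above both controls and 1 below. Of these, 2 passed the test, while the median over the probesets did not (difference 0.28 on the log2 scale, limma adjusted p = 0.180). MCM2, MCM4 and MCM5 thus read lower and MCM3, MCM6 and MCM7 higher, and of the 5 subunits tested at the gene level MCM5 and MCM6 passed.

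The factors that load the ring did not pass the test with the values as deposited. CDC6, the loader that joins ORC at origins, read 1677 and 1875 in the control arrays and 2092 and 1979 in the knockdown arrays, above both controls (difference 0.20 ± 0.087, log2 and SE; limma adjusted p = 0.162), and it passed after centring (0.0467). CDT1, its partner in loading, read 572 and 555 against 554 and 546. ORC1 and ORC6, subunits of the origin recognition complex, differed by 0.12 and 0.10 on the log2 scale (limma adjusted p = 0.456 and 0.684). The difference in CDT1 was -0.03 as deposited and changed sign after quantile normalization or centring.

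**Figure D3:**
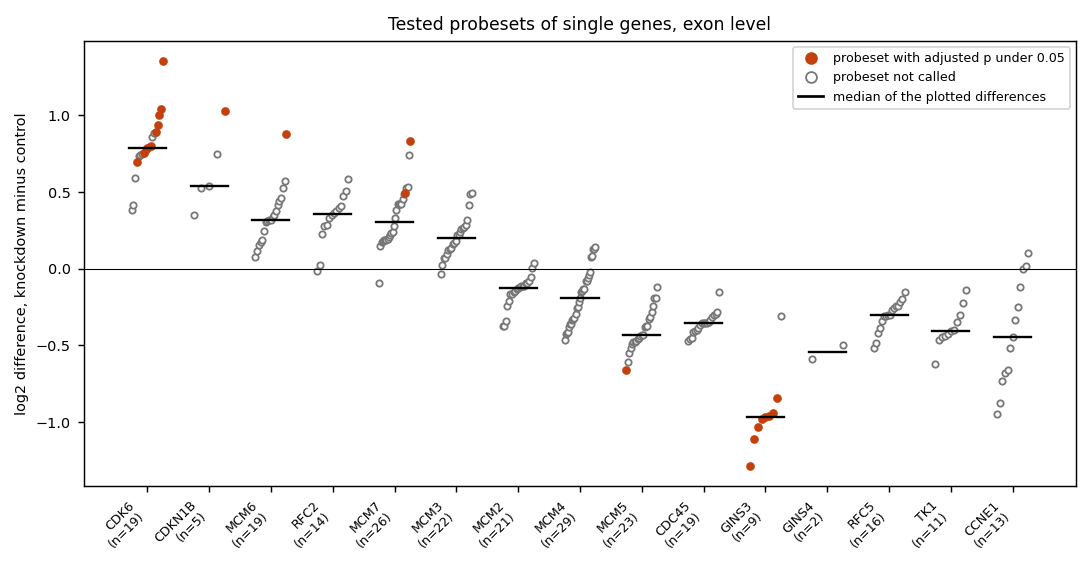
Differences of single exon probesets on the log2 scale, knockdown minus control, for 15 genes with the number of tested probesets under each name; filled points have an adjusted p below 0.05 and bars are the median of the plotted differences. CDK6 lies wholly above 0 and GINS3 wholly below, and the 6 MCM subunits fall on both sides.

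The step that turns the loaded ring into a moving helicase had 3 called genes, all lower: GINS3, GINS4 and CDC45, out of 6 tested, beside 15.3% of all features lower. GINS3, a subunit of the 4-part GINS complex, read 634 and 678 in the control arrays and 333 and 327 in the knockdown arrays. That is 1.94-fold lower, a difference of -0.96 ± 0.086 (log2, SE) with an adjusted p of 0.00227 in limma, and the call held under each of the 14 other settings, at 0.000426 to 0.0131. Among all tested probesets, 31.3% lay below both controls and 3.25% were called lower. All 9 tested exon probesets of GINS3 lay below both controls and 8 passed the test, with differences from -1.29 to -0.31 on the log2 scale. Without the filter 0 of them passed, without the intensity trend 1 did, and with 1 array left out 3 to 5 did (limma in each case). GINS4, another GINS subunit, read 464 and 471 in the control arrays and 302 and 324 in the knockdown arrays, 1.47-fold lower (difference -0.56 ± 0.089, log2 and SE; limma adjusted p = 0.0102). Both of its 2 tested probesets lay below both controls without passing the test. CDC45, the third part of the active helicase, read 1158 and 1233 in the control arrays and 934 and 906 in the knockdown arrays, 1.29-fold lower (difference -0.37 ± 0.078, log2 and SE; limma adjusted p = 0.0219). Of its 19 tested probesets, 18 lay below both controls. GINS4 lost its call without knockdown replicate 1 (0.0750) or 2 (0.0565), and CDC45 without knockdown replicate 1 (0.0970) or 2 (0.146) or control replicate 2 (0.0529).

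The other genes of the step did not pass the test at the gene level with the values as deposited. GINS1, a further GINS subunit, read 1357 and 1473 in the control arrays and 1410 and 1251 in the knockdown arrays, and the groups overlapped (limma adjusted p = 0.551). GINS2 read 340 and 424 against 313 and 363 and also overlapped. MCM10, a scaffold that takes part in starting the helicase, read 613 and 737 in the control arrays and 770 and 825 in the knockdown arrays (difference 0.24, log2; limma adjusted p = 0.172). After centring the arrays it passed (0.34, log2; limma adjusted p = 0.0335). Among all tested probesets, 19.4% lay above both controls. All 27 tested exon probesets of MCM10 had a positive difference and 17 lay above both controls. The median over those probesets passed the test (0.44 ± 0.119, log2 and SE; limma adjusted p = 0.0425) and their mean did not (0.26, log2; limma adjusted p = 0.152). A median can fall on different probesets in different arrays, and the median of the single MCM10 differences was 0.26.

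**Figure D4:**
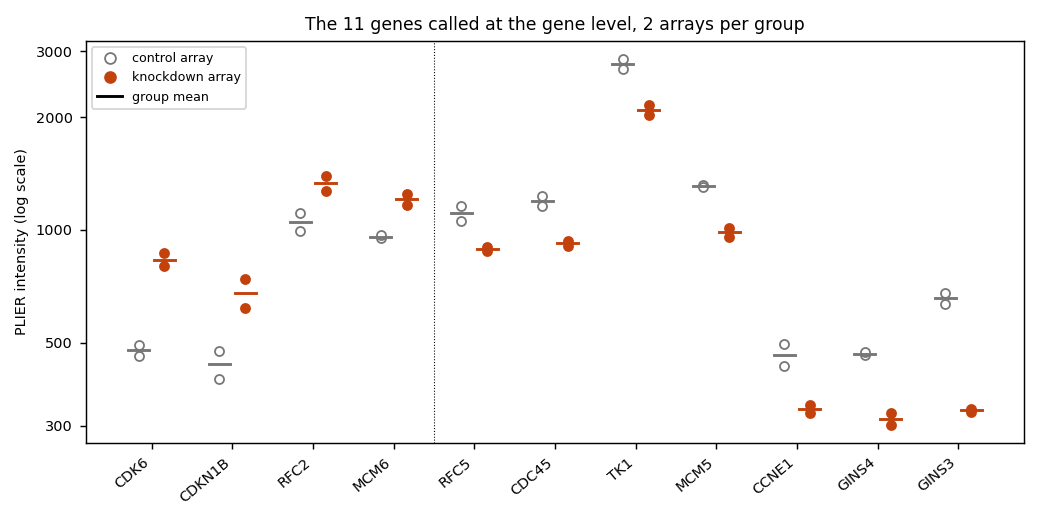
Intensities of the 11 genes called at the gene level, on a log axis; open circles are control arrays, filled circles are knockdown arrays and bars are group means of 2 arrays. The 4 genes left of the dotted line are higher and the 7 to the right are lower in both knockdown arrays than in both controls, with GINS3 at 333 and 327 against 634 and 678.

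Among the members in the clamp loader, which places the PCNA clamp on DNA, RFC2 rose and RFC5 fell by small amounts. RFC1, a subunit that is not a member, was also called higher, by 0.37 (log2, limma adjusted p = 0.0300), though not under every other setting. RFC2 read 995 and 1107 in the control arrays and 1273 and 1391 in the knockdown arrays, 1.26-fold higher (difference 0.34 ± 0.091, log2 and SE; limma adjusted p = 0.0457). RFC5 read 1054 and 1162 against 902 and 879, 1.24-fold lower (difference -0.31 ± 0.083, log2 and SE; limma adjusted p = 0.0461). Both stood just inside the threshold. RFC2 lost its call without control replicate 1 (0.111), knockdown replicate 1 (0.102) or knockdown replicate 2 (0.259), and RFC5 without control replicate 2 (0.103), knockdown replicate 1 (0.168) or knockdown replicate 2 (0.234); both lost it without the filter or the intensity trend, and RFC5 also after quantile normalization (0.0572) or centring (0.0972). RFC3 read 1732 and 1727 in the control arrays and 1625 and 1464 in the knockdown arrays (difference -0.16 ± 0.082, log2 and SE; limma adjusted p = 0.212). RFC4 differed by -0.11 on the log2 scale (limma adjusted p = 0.372). PCNA, the clamp itself, was read from exons only, and in each of its 9 tested probesets the groups overlapped (median difference 0.02, log2; limma adjusted p = 0.942).

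The polymerase genes did not pass the test. POLD1, the catalytic subunit of polymerase delta, which copies the lagging strand, read 512 and 588 in the control arrays and 447 and 486 in the knockdown arrays, below both controls (difference -0.23, log2; limma adjusted p = 0.172). POLE, the catalytic subunit of the leading-strand polymerase, read 397 and 491 against 454 and 486 and overlapped. PRIM1, the primase, differed by 0.10 (log2; limma adjusted p = 0.424), and POLA1, its polymerase partner, by -0.03 over the median of its exon probesets (log2; limma adjusted p = 0.938).

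Of the enzymes that join and trim the lagging strand, LIG1, DNA ligase 1, read 439 and 506 in the control arrays and 326 and 377 in the knockdown arrays. Its difference of -0.41 ± 0.115 (log2, SE) was as large as that of MCM5, with a wider error and an adjusted p of 0.0519 in limma. LIG1 passed as lower with the lower 60% of features left out. All 30 of its tested probesets had a negative difference, 21 lay below both controls and 1 passed the test. Among all tested probesets, 31.3% lay below both controls and 3.25% were called lower. FEN1, the flap endonuclease, was read from exons only and differed by 0.13 at the median (log2; limma adjusted p = 0.510).

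Among the enzymes of nucleotide supply, TK1 fell and the other 3 did not pass the test. TK1, thymidine kinase 1, which salvages thymidine, read 2693 and 2860 in the control arrays and 2156 and 2028 in the knockdown arrays. It was 1.32-fold lower, a difference of -0.41 ± 0.079 (log2, SE; limma adjusted p = 0.0174), and its call was lost without knockdown replicate 1 (0.0597) or 2 (0.117). Of its 11 tested probesets, 10 lay below both controls, beside 31.3% of all tested probesets. TYMS, thymidylate synthase, the enzyme of the other route to thymidylate, read 3008 and 3501 in the control arrays and 3136 and 2961 in the knockdown arrays, and the groups overlapped. RRM2, the small subunit of ribonucleotide reductase, read 6653 and 6641 against 7124 and 7603, above both controls (difference 0.15 ± 0.080, log2 and SE; limma adjusted p = 0.247). RRM1, the large subunit, differed by 0.12 (log2; limma adjusted p = 0.424). RRM2 and PCNA have processed pseudogenes, so their readings are uncertain.

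The exon level gave the same direction as the gene level for most members. Of 37 genes with both values, 34 had the same sign, including all 10 called at the gene level, and 4 of those 10 were called on both (CDK6, CDKN1B, GINS3, MCM5). These are 2 summaries of the same 4 arrays and not independent measurements. Over the 44 genes with a median, 3 rose (CDK6, CDKN1B, MCM10) and 3 fell (CCND2, MCM5, GINS3), beside 13.3% of all 12211 genes called, 3.74% higher and 9.57% lower. With the filter, the CCND2 call rests on probesets that passed through the controls alone. Without the filter its median differed by -1.69 (log2, limma adjusted p = 0.00644), over probesets that were mostly dim. The GINS3 median kept its call when any 1 array was left out. That of CDK6 lost its call without knockdown replicate 2 (limma adjusted p = 0.0584), and that of CDKN1B without control replicate 1 (0.147) or knockdown replicate 2 (0.250). Leaving out any single array ended the calls of MCM5, at 0.0534 to 0.126, and of MCM10, at 0.0956 to 0.269. RRM2 was the clearest exception, with a gene-level difference of 0.15 and a median over exon probesets of -0.23 (log2), neither of which passed the test. Of 749 tested probesets of these genes, 13 rose and 11 fell (3.2%), beside 4.58% of all tested probesets, 1.33% higher and 3.25% lower. In 393 of the 749 the groups did not overlap (52.5%), beside 50.7% of all. The 24 called probesets belonged to 8 genes, and CDK6 with 9 and GINS3 with 8 held most of them. Without the filter on low values, 0 member probesets passed in limma. No member had a probeset called as departing from the rest of its gene by limma, with 28 of 747 at an unadjusted p below 0.05 and 0.0515% of all probesets called. Mean values in place of medians, an alternative chosen after seeing the data, called 5 members higher (CDK6, CDKN1B, MCM6, MCM7, RFC2) and 7 lower (CCND2, CCNE1, CDKN2C, MCM5, CDC45, GINS3, TK1), beside 20.7% of all genes, 5.86% higher and 14.9% lower.

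**Figure D5:**
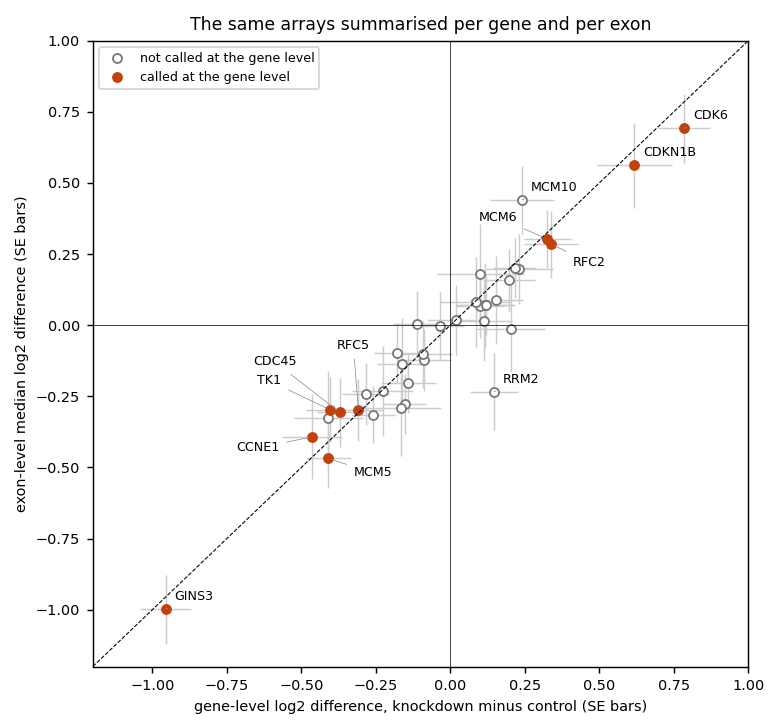
Knockdown minus control on the log2 scale for the 37 genes with both values: the gene-level difference (horizontal) against the difference in the median of exon probesets (vertical), with SE bars; filled points were called at the gene level and the dashed line marks equal values. GINS3, CDK6 and CDKN1B lie farthest from 0 near the line, and RRM2 lies at 0.15 across and -0.23 down.

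Further genes of the same pathway, also listed with earlier results of these data known, were changed about as often as all features. Of 61, 52 were tested: 6 rose and 5 fell (21.2%, beside 21.3%), with a median difference of 0.01 on the log2 scale. The 8 with the smallest p were RNASEH2A, E2F4, TFDP2, CDC25A, CHAF1A, CDC7, CLSPN and WDHD1. RNASEH2A, the catalytic subunit of the nuclease that removes ribonucleotides from DNA, read 2357 and 2517 in the control arrays and 1671 and 1685 in the knockdown arrays, 1.45-fold lower (limma adjusted p = 0.00716). E2F4, a repressing E2F, read 1015 and 1022 against 742 and 687 (difference -0.50, log2; limma adjusted p = 0.0101), and TFDP2, a dimer partner of E2F factors, read 747 and 752 against 514 and 553 (difference -0.48; limma adjusted p = 0.0123). CHAF1A, the large subunit of the histone chaperone that follows the fork, read 220 and 285 in the control arrays and 424 and 559 in the knockdown arrays, 1.89-fold higher (limma adjusted p = 0.0159). CDC7, the kinase that triggers the loaded MCM ring, read 461 and 467 against 612 and 652 (difference 0.43; limma adjusted p = 0.0171). CDC25A, the phosphatase that activates CDK2, read 389 and 407 against 547 and 554 (difference 0.45; limma adjusted p = 0.0152). CLSPN, the fork checkpoint mediator, read 266 and 328 against 440 and 493 (difference 0.63; limma adjusted p = 0.0191), and WDHD1, a fork protein that binds polymerase alpha, read 995 and 1156 against 1471 and 1412 (difference 0.42; limma adjusted p = 0.0275). Of these 8, only RNASEH2A kept its call when any 1 array was left out; without knockdown replicate 2 the other 7 stood at adjusted p from 0.0594 to 0.150.

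Genes of G2 and mitosis, the neighbouring phase, were listed in the same way and gave a similar mixture. Of 27 tested, 2 rose and 3 fell (18.5%, beside 21.3% of all features), with a median difference of -0.06 on the log2 scale. BIRC5, which encodes survivin of the chromosomal passenger complex, read 1955 and 2075 in the control arrays and 1286 and 1276 in the knockdown arrays (difference -0.65, log2; limma adjusted p = 0.00429). FOXM1, a transcription factor of G2 genes, and NEK2, a centrosome kinase, also fell, by 0.56 and 0.49 on the log2 scale (limma adjusted p = 0.0108 and 0.0174). KIF2C, a microtubule depolymerase, and PRC1, a midzone protein, rose by 0.50 and 0.41 (limma adjusted p = 0.0186 and 0.0359). Without knockdown replicate 2, BIRC5 kept its call and the other 4 stood at 0.0505 to 0.182. Whether the replication genes and these genes differed in their share of calls was not tested.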

How the data were processed

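Total RNA of 4 cultures was depleted of ribosomal RNA, labelled with biotin and hybridised to 1 array each, per the labels' protocols. The authors deposited PLIER intensity values, not log-transformed, for 22011 transcript clusters and 287329 probesets, made in Affymetrix Expression Console from core probesets per the labels. The sources used here do not give the versions, the background correction or the scaling of arrays to each other. Array medians were 168 to 186 at the gene level, and the number of arrays limits the precision.

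Features were named through the platform annotation with symbols updated by RefSeq. At the gene level 14432 clusters had 1 symbol, 2408 several and 5171 none, and at the exon level 261273, 9155 and 16901 probesets did. A gene with several clusters is represented by its brightest. No coordinates of array features are given, since the files name no build, and the promoter windows come from RefSeq.

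The deposited intensities were transformed here to log2(intensity + 16), so that fold changes of dim genes are understated. The lower 40% of features by mean over the 4 arrays were left out. Groups were compared with limma 3.58.1 (lmFit, eBayes with intensity trend, 2 residual degrees of freedom) in R 4.3.3, two-sided, with Benjamini-Hochberg adjustment over all features tested and a threshold of 0.05. Nothing says whether the cultures were grown apart, beyond the name biological replicates, so p-values rest on the variation between these arrays. Each SE and p-value used a variance moderated over all features by eBayes, and not the spread of the gene's own arrays alone. Exon-level medians and means were taken over tested probesets of genes with at least 3. Usage is a probeset minus the mean of the others of its gene. Each alternative changed 1 choice: offset, filter, trend, robust fit, scaling, replicate block, a left-out array and the mean of several clusters. The fits were tested on simulated data. Figures were drawn with matplotlib 3.10.9 in Python 3.11.15.

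Members and gene lists were chosen with earlier results of these data known. Named genes are ITGA3, every member, with array values for those called and the brightest not called in each role, and up to 8 of each other list by p. Array values of further members, and the result for RFC1, were added after they were seen.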

Additional observations from a re-analysis of the deposited data

How the results depend on the processing

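Of the 11 calls among the 38 genes, CDK6 and GINS3 held under each of the 14 other settings, and offsets of 1 and 64, the robust fit and the mean of clusters kept all 11. Counts below are given as higher and then lower. Without the filter, all features higher numbered 485, members higher 1, G2 and mitosis genes higher 1, member probesets 0 and 0 (limma), and members with a higher exon-level median 1. With the lower 60% left out, CDK2, LIG1 and MCM4 were added as lower among members, and exon-level medians gave 1 and 5. Without the intensity trend, members higher numbered 2, further pathway genes lower 3, G2 and mitosis genes higher 1, member probesets 0 and 1, and exon-level medians higher 1. After quantile normalization, all features higher numbered 1354, further pathway genes lower 3 and G2 and mitosis genes higher 4. After centring on array medians, the numbers were 1586 for all features higher, 8 for members higher, 11 and 3 for further pathway genes and 4 for G2 and mitosis genes higher. Means of probesets in place of medians, added after seeing the data, gave 5 and 7. Causes were not tested, beyond what leaving out features or arrays does by construction.

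Replicate numbers are shared between groups, but with 2 pairs, whose deviations correlated at 0.29, they were not taken to pair the cultures. With the replicate number as a block, all features higher numbered 1324, member probesets 56 and 66, exon-level medians lower 6 and member probesets of other usage 2 (in CCND2 and E2F2). That block added CDK2, LIG1 and MCM4 as lower among members and changed no other gene-level member call.

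Leaving out 1 array gave 166 to 909 features higher and 632 to 1906 lower. For members the ranges were 1 to 4 and 1 to 9, for further pathway genes 0 to 5 and 1 to 4, for G2 and mitosis genes 0 to 3 and 1 to 3, for member probesets 3 to 10 and 3 to 7, for exon-level medians 0 to 2 and 2 to 2, and for usage 0 to 1. By array, members called were 1 and 9 (control replicate 1 left out), 4 and 4 (control replicate 2), 2 and 1 (knockdown replicate 1), and 1 and 1 (knockdown replicate 2). Genes that were not called changed sign in 8 cases, given in log2: CDT1 (0.044 quantile, 0.064 centred), GINS1 (0.0095 centred), TYMS (0.0077 centred), and on leaving out 1 array TYMS (-0.20 to 0.019), E2F3 (-0.079 to 0.12), ORC6 (-0.11 to 0.31) and POLE (-0.063 to 0.23).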
